A study of Bos taurus with 6 samples.

Results

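The genes described here are the bovine members of 7 families of solute carriers that hold most of the known amino acid transporters of the plasma membrane and the lysosome: SLC1A, SLC3A, SLC6A, SLC7A, SLC36A, SLC38A and SLC43A. Membership was set by gene symbol, but the families were chosen with earlier results of these data known. Of the 23475 genes with a deposited value, 58 carried such a symbol. SLC6A was the largest family with 19 members, followed by SLC7A with 12, SLC38A with 11, SLC1A with 7, SLC36A with 4, SLC43A with 3 and SLC3A with 2. Not every member carries amino acids, because SLC6A also holds carriers of noradrenaline and creatine, SLC3A holds partner chains that carry nothing themselves, and SLC43A3 is known as a carrier of purine nucleobases.

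The study examined the role of bta-miR-484 in bovine fat cells by RNA sequencing. Cells isolated from the subcutaneous fat of 3 premature calves received by transfection either the agomir of bta-miR-484, giving 3 libraries, or the agomir NC, giving another 3, and RNA was taken after 48 h. An agomir is a chemically modified RNA that raises the activity of a miRNA, and the agomir NC, called the NC group, is its negative control, so both groups were transfected. The sources do not state how the calves map to the libraries, or whether the 3 libraries of a group came from separate cultures, so the p-values measure only the spread between these samples, which may be technical.

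The labels call the cells adipocytes, while the study describes the isolated cells as preadipocytes and uses both words for its transfected cells. The markers of mature adipocytes were low. ADIPOQ averaged 0.115 FPKM in the agomir group against 0.165 FPKM in the NC group, and CIDEC and LEP were listed at 0 in 4 of the 6 libraries each. Most mesenchymal genes were high, with PDGFRA at 165.4 ± 1.90 FPKM in the agomir group against 167.0 ± 5.09 FPKM in the NC group (SD, n = 3 each). However, DLK1, a preadipocyte marker, was listed at 0 in every library. CD34, from the same list of markers, was also low, averaging 0.430 FPKM in the agomir group against 0.532 FPKM in the NC group. Of 10 mesenchymal and preadipocyte markers, 8 were tested and DCN alone passed an unadjusted p of 0.05 (12.5%), a share near the 10.9% of all genes. DCN was at 2863 ± 31.3 FPKM in the agomir group against 3114 ± 129 FPKM in the NC group (SD, n = 3 each). It was not past that p without agomir replicate 1 or 3, nor after quantile normalization. After that normalization its log2 fold change was 0, against -0.12 as deposited, and 0 of the 8 markers passed (against 10.7% of all genes). Without agomir NC replicate 1 the count was 2 of 9, DCN and THY1 (22.2%, against 11.5% of all genes). Of 8 adipocyte markers, 5 were tested and 2 passed an unadjusted p of 0.05 (40%, against 10.9% of all genes), PPARG at 3.86 against 3.23 FPKM and FABP4 at 1.90 against 2.89 FPKM, agomir against agomir NC. PPARG did not pass it without agomir replicate 1, agomir replicate 3 or agomir NC replicate 3 or with the trend with gene span removed, nor FABP4 without agomir replicate 3 or agomir NC replicate 1. The summed level of the 8 markers was 11.5, 12.3 and 11.4 FPKM in the agomir group against 12.6, 11.02 and 11.1 FPKM in the NC group, with LPL the most abundant in the mean over all 6 libraries and PPARG in the agomir group, and the part of these markers in the transporter values was not tested. Of 29 markers of 6 other cell types, 8 were tested and 0 passed an unadjusted p of 0.05, against 10.9% of all genes. Without agomir NC replicate 1, 1 passed (CNN1, against 11.5% of all genes), and without agomir NC replicate 2, 1 passed (ACTA2, against 9.57%).

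Cells take up most amino acids against a gradient, through carriers coupled to sodium or protons, and then trade them through exchangers that swap an internal amino acid for an external one. Glutamine brought in by the first kind can be exchanged for leucine and other essential amino acids by the second, and the amino acids that reach the lysosome are read there by the mTORC1 kinase pathway. In fat cell precursors these supplies serve protein synthesis, and branched-chain amino acids also feed lipid synthesis once the cells differentiate.

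Of the 58 members, 29 reached a mean of 0.5 FPKM over the 6 libraries and were tested. Levels are given in FPKM, which is fragments scaled to the length of the transcript and to the mapped fragments of the library, and differences as log2 fold changes of agomir over agomir NC on log2(FPKM + 0.5), a scale that shrinks the change of a gene at low FPKM. After adjustment over the 12422 genes tested, 0 of the 29 members passed an adjusted p of 0.05 in limma, against 0.00805% of all genes. At an unadjusted p under 0.05 the results showed 0 members higher with the agomir, against 6.63% of all genes, and 3 members lower (10.3%), against 4.31% of all genes. The 3 were SLC1A5, SLC43A3 and SLC43A2. In bulk RNA, a lower level in each cell and a smaller share of cells that express the gene cannot be told apart.

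The split of all genes between higher and lower moved with the scaling of the libraries, so the member counts were read against each. As deposited, 824 genes were higher and 535 lower at an unadjusted p under 0.05. These became 657 and 706 after median-ratio scaling, 696 and 629 after quantile normalization, and 687 and 683 once a trend with gene span was removed. The same 3 members were lower under each of these scalings, and quantile normalization added SLC38A2 as higher. Leaving out 1 library also added 1 member as higher: SLC7A11 without agomir replicate 1, SLC6A17 without agomir NC replicate 1 and SLC38A4 without agomir NC replicate 2, where 5.82%, 6.68% and 5.28% of all genes were higher.

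The members' differences were small. Of the 29 tested, 15 had a positive and 14 a negative log2 fold change, and their median was 0.00066, against 0.013 over all genes. The direction of this median turned with the scaling. It was -0.015 after median-ratio scaling and after quantile normalization, with 14 members positive in each, and -0.021 with the span trend removed, with 13 positive, against -0.0020, 0.0030 and -0.0026 over all genes. With 1 library left out it ran from 0.0032 without agomir NC replicate 1 to 0.031 without agomir replicate 3. The median size of the log2 fold change was 0.083 in the members and 0.076 in all genes. The ratio of mean FPKM lay within 10% of equal in 18 members and was over 20% away in 5, and it ran from 0.776 in SLC43A3 to 1.36 in SLC38A4. The 95% interval of the fold change stayed within 1.5-fold in either direction in 27 members, the exceptions being SLC38A4 and SLC7A7. In 4 of the 29 members (13.8%) the agomir libraries were all above the agomir NC libraries, against 10.9% of all genes, and in 6 (20.7%) the agomir libraries were all below, against 6.36% of all genes. The former were SLC36A1, SLC7A1, SLC7A2 and SLC7A11, and the latter SLC1A5, SLC38A5, SLC43A2, SLC43A3, SLC6A2 and SLC6A9. The same 6 were below under each of the 3 scalings, where 7.30% to 8.19% of all genes were. Above were 2 (6.90%) after median-ratio scaling and with the span trend removed, in both cases SLC36A1 and SLC7A1, against 8.81% and 8.82% of all genes, and 3 (10.3%) after quantile normalization, these and SLC38A2, against 8.94% of all genes. With 3 libraries in each group, the exact permutation test (two-sided) has a smallest p of 0.1, the value each of the 10 genes apart as deposited had.

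**Figure D1:**
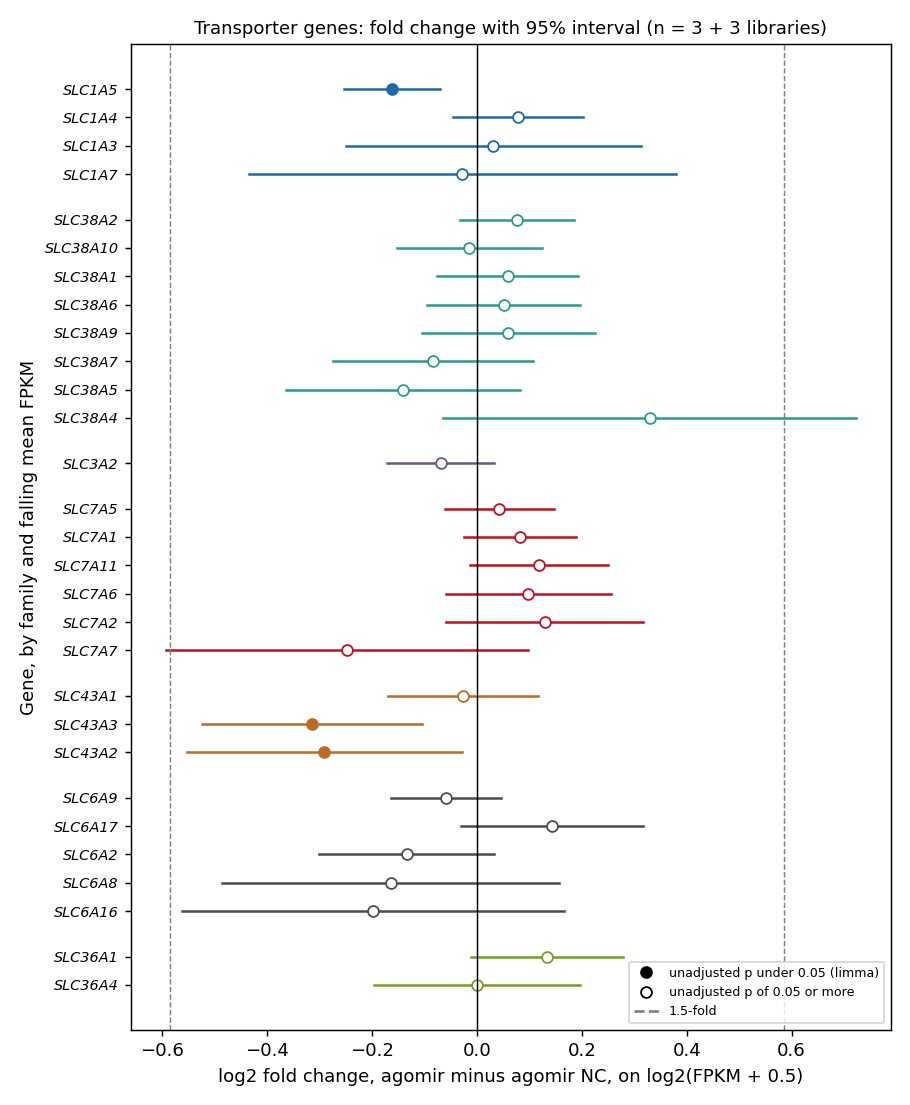
Log2 fold change (agomir minus agomir NC, on log2(FPKM + 0.5)) of the 29 tested transporter genes, grouped by family, with horizontal lines for the 95% interval from limma (n = 3 libraries per group). Filled points mark the 3 genes at an unadjusted p under 0.05, SLC1A5, SLC43A3 and SLC43A2, and the dashed lines mark 1.5-fold.

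Levels spanned a wide range. SLC38A2, SLC3A2 and SLC1A5, a sodium-coupled importer, the partner chain of the exchangers and a glutamine exchanger, made up 57.2% of the summed FPKM of all 58 members. Another 4 tested members reached a mean of 20 FPKM, 19 lay between 1 and 20 FPKM and 3 between 0.5 and 1 FPKM. The spread between replicates narrowed with level. The median SD of the log2 values within a group was 0.20 in the members at 0.5 to 1 FPKM, 0.17 at 1 to 5 FPKM, 0.068 at 5 to 20 FPKM and 0.038 at 20 FPKM and above.

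**Figure D2:**
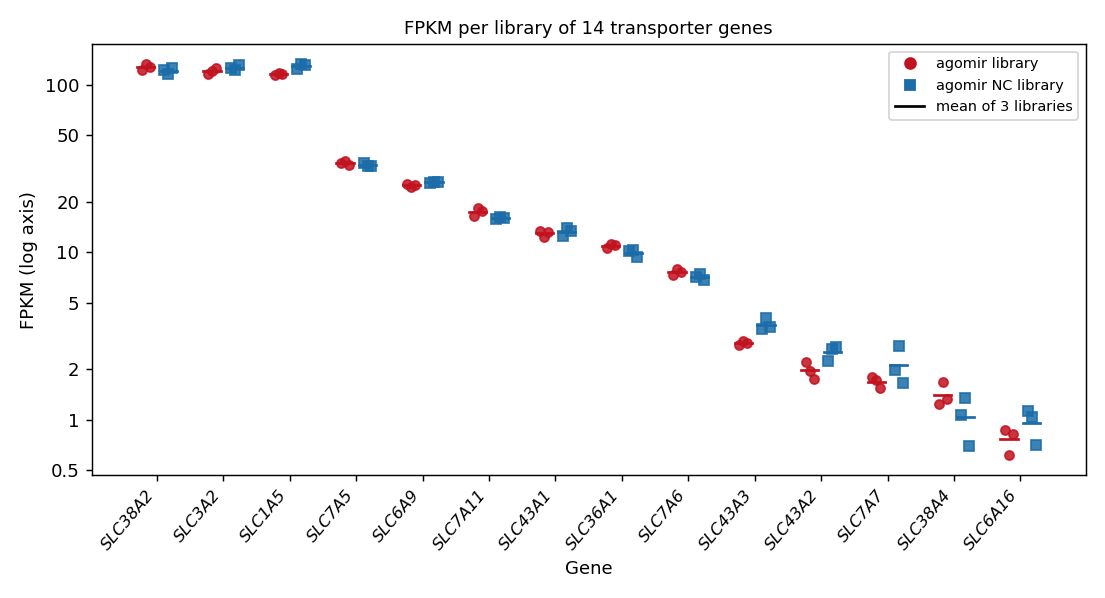
FPKM on a log axis in each of the 6 libraries for 14 transporter genes, in order of mean level, with red circles for the 3 agomir libraries, blue squares for the 3 agomir NC libraries and a short line for each mean. The groups are apart, with every agomir library lower, in SLC1A5, SLC43A3, SLC43A2 and SLC6A9, and apart with every agomir library higher in SLC36A1 and, as deposited but under none of the 3 scalings, in SLC7A11.

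In the SLC1A family, SLC1A5 is a sodium-dependent exchanger of neutral amino acids and a main route of glutamine into dividing cells. Its level was 113.7, 117.7 and 115.5 FPKM in the agomir libraries and 124.7, 133.0 and 130.5 FPKM in the agomir NC libraries. The agomir libraries were all below the agomir NC libraries, and the means differed by more than the SD of either group. Mean levels came to 115.6 ± 2.01 and 129.4 ± 4.22 FPKM (SD, n = 3 each), for a ratio of 0.894, and the log2 fold change was -0.16 (standard error 0.041, 95% interval -0.25 to -0.07, adjusted p = 0.274 in limma). It was past an unadjusted p of 0.05 in each of 16 other settings, with log2 fold changes from -0.19 to -0.14 and adjusted p from 0.223 to 0.522. SLC1A4, which exchanges alanine, serine and cysteine, was at 17.8 ± 0.782 FPKM in the agomir group against 16.9 ± 0.325 FPKM in the NC group (SD, n = 3 each), with overlapping groups. The glutamate carriers SLC1A3 and SLC1A7 had mean levels of 0.998 and 0.672 FPKM over all libraries, with overlapping groups.

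The SLC38A family carries small neutral amino acids together with sodium. SLC38A2, which takes up alanine, serine and glutamine and is known to be induced when amino acids run short, had the highest mean FPKM of the members over the 6 libraries together and in the agomir group, while SLC1A5 and SLC3A2 were above it in the NC group. Its level was 123.0, 133.1 and 127.2 FPKM in the agomir group against 122.1, 115.2 and 126.2 FPKM in the NC group. The groups overlapped, since agomir replicate 1 lay below agomir NC replicate 3. The log2 fold change was 0.08 (standard error 0.048, 95% interval -0.03 to 0.19, adjusted p = 0.605 in limma). It passed an unadjusted p of 0.05 only after quantile normalization, where the log2 fold change was 0.10. The value was 0.047 when agomir replicate 2 was left out and 0.041 when agomir NC replicate 2 was left out, and its adjusted p over 16 alternatives ran from 0.428 to 0.866.

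SLC38A4 is a system A carrier known for its high level in liver, and its level was low here. As deposited, its log2 fold change was the largest in size of the members tested. SLC43A3 was larger in size after median-ratio scaling (-0.33 against 0.32) and with the span trend removed (-0.33 against 0.29), among others. The level of SLC38A4 was 1.24, 1.67 and 1.32 FPKM in the agomir group against 1.06, 1.35 and 0.698 FPKM in the NC group. The groups overlapped, and agomir NC replicate 3 was the lowest of the 6 libraries. The log2 fold change was 0.33 (standard error 0.18, 95% interval -0.06 to 0.72, adjusted p = 0.535 in limma). It was 0.48 and past an unadjusted p of 0.05 without agomir NC replicate 2, and 0.16 without agomir NC replicate 3. The other 6 tested members were SLC38A1, SLC38A5, SLC38A6, SLC38A7, SLC38A9 and SLC38A10. Of these, SLC38A10 was the highest at a mean of 29.1 FPKM over all libraries and SLC38A5 the lowest at 7.82 FPKM, and SLC38A9, a lysosomal sensor of arginine, was at 8.697 FPKM. Their log2 fold changes lay between -0.14 in SLC38A5, which was at -0.021 without agomir NC replicate 3, and 0.06 in SLC38A9, which was at 0.013 without agomir NC replicate 2. SLC38A5 was at 7.38 ± 0.0671 FPKM in the agomir group against 8.25 ± 1.30 FPKM in the NC group (SD, n = 3 each), and its groups did not overlap, although agomir NC replicates 1 and 2, at 7.53 and 7.46 FPKM, were close to the agomir libraries.

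SLC3A2 is the heavy chain that brings the exchangers of the SLC7A family to the cell surface. Its level was 115.2, 120.0 and 125.0 FPKM in the agomir group against 125.0, 122.2 and 130.4 FPKM in the NC group. The groups overlapped, with agomir replicate 1 the lowest of the 6 libraries and agomir NC replicate 3 the highest. Its log2 fold change was -0.07 (standard error 0.045, 95% interval -0.17 to 0.03, adjusted p = 0.624 in limma), and it was -0.039 without agomir replicate 1 and -0.043 without agomir NC replicate 3. The other heavy chain, SLC3A1, which is known from kidney and intestine, averaged 0.0706 FPKM over all libraries and was not tested.

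The list of light chains for large neutral amino acids and cystine, with their heavy chains, named 10 genes, of which 9 had a deposited value and 5 were tested. In limma, 0 of the 5 passed an adjusted p of 0.05 and 0 an unadjusted p of 0.05, the latter against 10.9% of all genes. At the unadjusted p, 1 passed without agomir replicate 1 (SLC7A11) and 1 without agomir NC replicate 3 (SLC7A7). Each is 20%, against 9.82% and 9.01% of all genes. SLC7A5, the exchanger that brings in leucine and other large neutral amino acids, was at 33.9, 34.9 and 33.4 FPKM in the agomir group against 34.02, 32.6 and 32.5 FPKM in the NC group. The groups overlapped within a narrow range, and the log2 fold change was 0.04 (95% interval -0.06 to 0.15, adjusted p = 0.778 in limma), or 0.026 without agomir replicate 2 and with the span trend removed and 0.027 after median-ratio scaling. SLC7A11, the light chain that imports cystine in exchange for glutamate and so feeds glutathione synthesis, was at 16.4, 18.4 and 17.6 FPKM in the agomir group against 15.8, 16.3 and 16.05 FPKM in the NC group. The agomir libraries were all above the agomir NC libraries, though agomir replicate 1 only just, and the groups overlapped under each of the 3 scalings (16.36 FPKM in agomir replicate 1 against 16.46 FPKM in agomir NC replicate 2 after median-ratio scaling). The log2 fold change was 0.12 (standard error 0.059, 95% interval -0.01 to 0.25, adjusted p = 0.508 in limma), and without agomir replicate 1 it was 0.16 and past an unadjusted p of 0.05.

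SLC7A6 and SLC7A7 exchange cationic for neutral amino acids. SLC7A6 was at 7.32, 7.94 and 7.57 FPKM in the agomir group against 7.06, 7.35 and 6.804 FPKM in the NC group, a log2 fold change of 0.10 (adjusted p = 0.644 in limma). Its groups overlapped by a narrow margin. SLC7A7 was at 1.78, 1.72 and 1.55 FPKM in the agomir group against 1.99, 2.75 and 1.64 FPKM in the NC group, a log2 fold change of -0.25 (95% interval -0.59 to 0.10, adjusted p = 0.603 in limma). The groups overlapped and agomir NC replicate 2 stood well above the rest. Without that library the log2 fold change was -0.08, and without agomir NC replicate 3 it was -0.38 and past an unadjusted p of 0.05. The cationic amino acid carriers SLC7A1 and SLC7A2, which need no heavy chain, averaged 29.8 ± 0.941 and 4.11 ± 0.211 FPKM with the agomir (SD, n = 3 each). With the agomir NC they averaged 28.1 ± 0.364 and 3.72 ± 0.127 FPKM (SD, n = 3 each), and in both genes every agomir library was the higher as deposited, at log2 fold changes of 0.08 (0.053 with the span trend removed) and 0.13. This held for SLC7A1 under each of the 3 scalings, while the SLC7A2 groups overlapped under each.

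In the SLC43A family, 2 of the 3 members were lower at an unadjusted p under 0.05 (66.7%), against 4.31% of all genes. SLC43A1 and SLC43A2 let large neutral amino acids cross the membrane without sodium and without exchange. SLC43A2 was at 2.22, 1.95 and 1.75 FPKM in the agomir group against 2.23, 2.63 and 2.704 FPKM in the NC group. The agomir libraries were all below the agomir NC libraries, but agomir replicate 1 and agomir NC replicate 1 were almost level. Mean levels came to 1.97 ± 0.237 and 2.52 ± 0.255 FPKM (SD, n = 3 each), and the log2 fold change was -0.29 (standard error 0.12, 95% interval -0.55 to -0.03, adjusted p = 0.412 in limma). It was no longer past an unadjusted p of 0.05 without agomir replicate 2 (-0.29), agomir replicate 3 (-0.22), agomir NC replicate 2 (-0.26) or agomir NC replicate 3 (-0.25), which left 1 of the 3 members lower (33.3%), against 3.62%, 3.62%, 4.29% and 3.08% of all genes in the same order.

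SLC43A3 had the lowest ratio of the members tested. Its level was 2.79, 2.95 and 2.86 FPKM in the agomir group against 3.47, 4.06 and 3.55 FPKM in the NC group. The groups were well apart, with the agomir libraries close together and agomir NC replicate 2 the highest. Mean levels came to 2.87 ± 0.0844 and 3.69 ± 0.320 FPKM (SD, n = 3 each), and the log2 fold change was -0.31 (standard error 0.094, 95% interval -0.52 to -0.10, adjusted p = 0.314 in limma). It was past an unadjusted p of 0.05 in each of 16 other settings, with log2 fold changes from -0.35 to -0.25 and adjusted p from 0.293 to 0.548.

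SLC43A1 was the most abundant member of that family. Its level was 13.3, 12.4 and 13.1 FPKM in the agomir group against 12.4, 13.8 and 13.3 FPKM in the NC group. The groups overlapped, with agomir replicate 2 the lowest library and agomir NC replicate 2 the highest. The log2 fold change was -0.03 (95% interval -0.17 to 0.12, adjusted p = 0.918 in limma). It turned to 0.0046 without agomir replicate 2 and 0.0073 without agomir NC replicate 2, and it was -0.067 without agomir NC replicate 1. In the RefSeq annotation SLC43A3 and SLC43A1 lie near each other with 1 coding gene between them. Whether the fold changes of SLC43A1 and SLC43A3 differ from each other was not tested.

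The SLC6A family couples uptake to sodium and chloride, and 5 of its 19 members were tested. SLC6A9, the glycine carrier, was at 25.4, 24.4 and 25.3 FPKM in the agomir group against 25.9, 26.1 and 26.2 FPKM in the NC group. The agomir libraries were all below the agomir NC libraries, by little, and the log2 fold change was -0.06 (standard error 0.047, 95% interval -0.16 to 0.05, adjusted p = 0.683 in limma). In RefSeq its span overlaps KLF17 and CCDC24, and the strand setting of the authors' estimates is not given in the sources used here. SLC6A16 was at 0.866, 0.610 and 0.816 FPKM in the agomir group against 1.13, 1.03 and 0.706 FPKM in the NC group. The groups overlapped through agomir NC replicate 3, at a log2 fold change of -0.20 (adjusted p = 0.695 in limma). Leaving that library out gave -0.33, while leaving out agomir replicate 2 or agomir NC replicate 1 gave -0.11.

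The other 3 tested SLC6A members had lower levels than SLC6A9. SLC6A17, which loads neutral amino acids into synaptic vesicles, was at 7.17 ± 0.263 FPKM in the agomir group against 6.45 ± 0.487 FPKM in the NC group (SD, n = 3 each). SLC6A2, the noradrenaline carrier, was at 6.42 ± 0.374 and 7.09 ± 0.306 FPKM in the same order (SD, n = 3 each), with every agomir library lower. SLC6A8, the creatine carrier, was at 2.06 ± 0.0845 and 2.403 ± 0.554 FPKM (SD, n = 3 each). Without agomir NC replicate 1, SLC6A17 passed an unadjusted p of 0.05 as higher and SLC6A8 as lower, which made 4 members lower in all (against 4.80% of all genes). For SLC6A8 the log2 fold change was -0.16, and it became -0.32 with that library left out and -0.038 with agomir NC replicate 3 left out.

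The SLC36A family moves small amino acids, and SLC36A1 couples this to protons at the lysosome. SLC36A1 was at 10.5, 11.2 and 11.02 FPKM in the agomir group against 10.1, 10.2 and 9.37 FPKM in the NC group. The agomir libraries were all above the agomir NC libraries. Mean levels came to 10.9 ± 0.352 and 9.91 ± 0.472 FPKM (SD, n = 3 each), and the log2 fold change was 0.13 (standard error 0.064, 95% interval -0.01 to 0.28, adjusted p = 0.495 in limma). It passed an unadjusted p of 0.05 only where no filter on low values was set, and its span overlaps FAT2 in RefSeq. Such overlaps were not particular to it, since 10 of the 29 tested members overlap another RefSeq gene, among them SLC6A16, SLC7A1, SLC7A2 and SLC7A6. SLC36A4 was at 7.61 ± 0.176 FPKM in the agomir group against 7.64 ± 0.903 FPKM in the NC group (SD, n = 3 each).

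The 29 members below the filter included many carriers known from brain, kidney and intestine. Of these, 7 were listed at 0 in all 6 libraries: SLC1A6, SLC38A11, SLC6A11, SLC6A12, SLC6A13, SLC6A18 and SLC6A19. The other 22 were above 0 in at least 1 library, and the highest was the glutamate carrier SLC1A1 at a mean of 0.477 FPKM, while the lowest member tested was SLC1A7 at 0.672 FPKM. Among the 22, SLC38A8 was higher in every agomir library (0.158 against 0.114 FPKM on average) and SLC7A8, a light chain for neutral amino acids, was lower in every one (0.174 against 0.280 FPKM on average). Each is 1 of 22 (4.55%), near the 3.44% above and 3.36% below among the 6045 genes under the filter with a value over 0.

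The families were also compared by their summed FPKM in each library, as a description without a test. The SLC1A sum was 133.9, 137.2 and 136.02 FPKM in the agomir group against 143.5, 151.9 and 149.6 FPKM in the NC group. Every agomir library was lower, and SLC1A5 made up 86.3% of this sum. The SLC7A sum was 92.99, 97.95 and 94.2 FPKM in the agomir group against 90.7, 90.97 and 89.9 FPKM in the NC group, so that every agomir library was higher. The SLC36A sum averaged 18.5 ± 0.326 FPKM in the agomir group against 17.6 ± 0.4705 FPKM in the NC group, also higher in every agomir library, and the SLC6A sum averaged 43.1 ± 0.402 and 44.7 ± 0.741 FPKM, lower in every one (SD, n = 3 each). SLC36A1 made up 57.7% of the SLC36A sum, SLC6A9 58.2% of the SLC6A sum and SLC7A5 36.2% of the SLC7A sum. How often sums over other sets of genes separate in this way was not computed. After median-ratio scaling these 4 families kept their sides.

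The sums of the other 3 families overlapped between the groups. SLC38A averaged 212.1 ± 4.496 FPKM in the agomir group against 205.2 ± 4.47 FPKM in the NC group, SLC3A 120.1 ± 4.93 and 125.9 ± 4.18 FPKM, and SLC43A 17.8 ± 0.5301 and 19.4 ± 1.201 FPKM (SD, n = 3 each). Over all 58 members the sum averaged 642.4 ± 10.8 FPKM in the agomir group against 651.6 ± 9.698 FPKM in the NC group (SD, n = 3 each), with overlapping groups. The median log2 fold change of the tested members was -0.29 in SLC43A, -0.13 in SLC6A and -0.07 in SLC3A, and 0.09 in SLC7A, 0.07 in SLC36A and 0.055 in SLC38A. These signs were the same under each of the 3 scalings, but without a filter on low values SLC36A turned to -0.0091 and SLC3A to 0.0029, and SLC6A was at -0.058. SLC6A was at -0.056 without agomir NC replicate 3. Without agomir NC replicate 2, SLC36A was at 0.038 and SLC38A at 0.029. After quantile normalization SLC36A was at 0.044 and SLC38A at 0.029, and with the span trend removed they were at 0.036 and 0.019. In SLC1A the median was 0.0018 and turned negative after median-ratio scaling (-0.0084), with the span trend removed (-0.028), without agomir replicate 2 (-0.045) and without agomir NC replicate 1 or 2 (-0.023 each), among others, and it was 0.067 without agomir replicate 1.

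Among 26 genes of the amino acid response driven by the transcription factor ATF4, which is known to induce several of these carriers, all 26 were tested. At an unadjusted p under 0.05, 0 were higher, against 6.63% of all genes, and 3 were lower (11.5%), against 4.31% of all genes. ATF4 itself was level, at 224.1 ± 3.84 FPKM in the agomir group against 224.1 ± 6.54 FPKM in the NC group (SD, n = 3 each). DDIT4, an inhibitor of mTORC1, was at 121.5 ± 3.79 and 141.0 ± 12.2 FPKM in the same order (SD, n = 3 each), with its log2 fold change at -0.21 (adjusted p = 0.310 in limma). PHGDH, the first enzyme of serine synthesis, was at 216.8 ± 1.10 and 234.4 ± 1.98 FPKM (SD, n = 3 each), with its log2 fold change at -0.11 (adjusted p = 0.333 in limma). The last was ATF5, at -0.17 (adjusted p = 0.448 in limma), which ran from -0.24 without agomir NC replicate 1 to -0.11 without agomir NC replicate 2 over 10 other settings. It was no longer past an unadjusted p of 0.05 in 7 of the 10, among them those without agomir replicates 2 or 3 and without agomir NC replicates 2 or 3. Another of the 7 was the fit with a replicate block in the model. The log2 fold change was negative in 22 of the 26, against 5582 of all 12422 genes, and in 16 without agomir NC replicate 3, against 5496 of all 12415 genes. The median of the list was -0.04, against 0.013 over all genes, and it was -0.08 without agomir NC replicate 1 and -0.026 without agomir NC replicate 3. The number lower was 6 (23.1%) after median-ratio scaling, 4 (15.4%) after quantile normalization and 3 (11.5%) with the span trend removed, against 5.68%, 5.06% and 5.50% of all genes. It was 2 (7.69%) without agomir replicate 3 or agomir NC replicate 3 and with the replicate block, against 3.62%, 3.08% and 4.20% of all genes.

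Of 33 genes listed for mTORC1 and its sensing of amino acids, all tested, 4 were higher at an unadjusted p under 0.05 (12.1%, against 6.63% of all genes). At that p 0 were lower, against 4.31% of all genes. The 4 were TSC1, SEH1L, LAMTOR2 and MTOR. SESN2 was counted with the ATF4 genes, although SESN1 and SESN3 are in this list. It was lower in every agomir library, as were 6.36% of all genes. It passed an unadjusted p of 0.05 in limma after median-ratio scaling and quantile normalization, but not as deposited. LAMTOR2, part of the lysosomal anchor of the pathway, was at 21.2 ± 0.978 FPKM in the agomir group against 18.5 ± 2.36 FPKM in the NC group (SD, n = 3 each). Its log2 fold change was 0.19 (adjusted p = 0.447 in limma). TSC1, a restraint on mTORC1, was also at 0.19 (adjusted p = 0.397 in limma), SEH1L at 0.13 (adjusted p = 0.440 in limma) and MTOR, the kinase itself, at 0.15 (adjusted p = 0.447 in limma). TSC1 ran from 0.14 to 0.26 over 10 other settings and was past an unadjusted p of 0.05 in 7 of them, but not without agomir replicate 2, agomir NC replicate 2 or agomir NC replicate 3. LAMTOR2 ran from 0.14 without agomir NC replicate 2 to 0.29 without agomir NC replicate 3 and was past it in 4 of the 10, and SEH1L and MTOR in 2 each. The count was 1 (3.03%) after median-ratio scaling and after quantile normalization, in both cases TSC1, which was below the 5.29% and 5.60% of all genes that were higher there. It was 2 (6.06%) with the span trend removed, near the 5.53% of all genes. With the replicate block it was 3 (9.09%), against 5.94% of all genes, and these were FNIP2, LAMTOR2 and TSC1. With agomir replicate 2 left out it was 1 (3.03%), below the 4.47% of all genes. With agomir replicate 3 or any 1 of the agomir NC replicates left out it was 2 (6.06%), near the share of all genes, which ran from 5.24% to 6.68%.

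Of 22 enzymes of branched-chain amino acid breakdown, 21 were tested. At an unadjusted p under 0.05, 0 were higher, against 6.63% of all genes, and 1 was lower (4.76%), a share near the 4.31% of all genes. It was BCAT1, the cytosolic enzyme that takes the amino group off leucine, isoleucine and valine. Its level was 20.9, 17.3 and 20.4 FPKM in the agomir group against 24.0, 24.6 and 23.6 FPKM in the NC group. Every agomir library was lower, and the log2 fold change was -0.30 (with a standard error of 0.072, adjusted p = 0.257 in limma). The number lower was 2 (9.52%) without agomir replicate 1, agomir replicate 2 or agomir NC replicate 1, and with the span trend removed, against 4%, 3.62%, 4.80% and 5.50% of all genes. The number higher was 1 (4.76%) without agomir replicate 1 and 2 (9.52%) without agomir NC replicate 3, against 5.82% and 5.93% of all genes. With the replicate block it was 1 (4.76%, AUH), against 5.94% of all genes.

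Of 21 enzymes of glutamine, glutamate, arginine and glutathione, 16 were tested. At an unadjusted p under 0.05, 1 was higher (6.25%), a share near the 6.63% of all genes, and 2 were lower (12.5%), against 4.31% of all genes. GCLM, a subunit of the enzyme that starts glutathione synthesis, was at 16.9 ± 0.213 FPKM in the agomir group against 15.2 ± 0.142 FPKM in the NC group (SD, n = 3 each), with its log2 fold change at 0.15 (adjusted p = 0.363 in limma). GSS, which completes glutathione, was at 16.5 ± 0.144 and 18.4 ± 0.497 FPKM (SD, n = 3 each), with its log2 fold change at -0.15 (adjusted p = 0.354 in limma). GGT5, an enzyme of the cell surface that acts on glutathione conjugates, was at 4.23 ± 0.568 and 5.81 ± 1.13 FPKM (SD, n = 3 each), with its log2 fold change at -0.41 (adjusted p = 0.357 in limma). The number lower was 4 (25%) after median-ratio scaling and 5 (31.2%) with the span trend removed, against 5.68% and 5.50% of all genes, and it was 1 (6.25%) without agomir NC replicate 3, against 3.08% of all genes. The number higher was 0 without agomir replicate 3, against 5.24% of all genes. GGT5 ran from -0.52 without agomir NC replicate 1 to -0.27 without agomir NC replicate 3 over 10 other settings and was not past an unadjusted p of 0.05 without agomir replicate 2 or agomir NC replicate 3.

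Of 21 other carriers of amino acids and peptides, 18 had a deposited value and 10 were tested. At an unadjusted p under 0.05, 2 were higher (20%), against 6.63% of all genes, and 0 were lower, against 4.31% of all genes. Both act in mitochondria. SLC25A22, a glutamate carrier, was at 9.09 ± 0.5605 FPKM in the agomir group against 7.89 ± 0.189 FPKM in the NC group (SD, n = 3 each), with its log2 fold change at 0.19 (adjusted p = 0.381 in limma). SLC25A13, which exchanges aspartate for glutamate, was at 6.14 ± 0.446 and 5.24 ± 0.251 FPKM (SD, n = 3 each), with its log2 fold change at 0.21 (adjusted p = 0.406 in limma). SLC25A22 ran from 0.15 to 0.23 over 10 other settings and was not past an unadjusted p of 0.05 without agomir replicate 3 or agomir NC replicate 2. SLC25A13 ran from 0.16 to 0.25 and was not past it without agomir replicate 2, agomir replicate 3 or agomir NC replicate 3, nor with the span trend removed. The log2 fold change was positive in 9 of the 10 genes, against 6840 of all 12422 genes, and in 8 without agomir replicate 3 and 7 without agomir NC replicate 3, against 6838 of 12431 and 6919 of 12415 genes. The number higher was 5 (50%) without agomir NC replicate 1, against 6.68% of all genes, 1 (10%) without agomir NC replicate 2 or 3, against 5.28% and 5.93%, 0 without agomir replicate 3, against 5.24%, and 1 (10%) with the span trend removed, against 5.53%.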

How the data were processed

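RNA from 6 libraries was sequenced, 3 per group. The authors deposited FPKM values, 1 estimate per gene and library, normalized for transcript length and mapped fragments. The submitters' processing notes name the build ARS-UCD1.2 and the tools fastp, HISAT2 and StringTie, and give no versions. No read counts were used. Whole reads could not be recovered, since no bin of 0.002 in the log2 ratio of a pair of libraries held more than 10 of 2983 low genes, and depth is therefore unknown.

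Genes that averaged 0.5 FPKM or more were put on the log2(FPKM + 0.5) scale and compared with limma (version 3.58.1, R 4.3.3), in a two-sided test with a variance trend and with no replicate term. Benjamini-Hochberg adjustment covered the 12422 genes tested. For single genes an exact permutation test over 20 labelings was added. The model was tested on simulated data. Values in every library were given for the most abundant member of each family, members under an unadjusted p of 0.05, tested light and heavy chains, and the 5 largest fold changes. In the other lists, up to 4 genes with the smallest p under 0.05 were named. Any other gene with its own value was chosen after its values were seen. The members and lists were chosen with earlier results of these data known.

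As alternatives, the pseudocount was set to 0.1 or 1, the filter was dropped or raised to 1 FPKM, the libraries were scaled by median ratios or quantile normalized, the variance trend was dropped, array weights or a replicate block were added, a trend with gene span was removed, and each library was left out in turn. The other lists were recomputed under the scalings, the block and the left-out libraries only. RefSeq annotation of ARS-UCD2.0 gave spans and neighbours, and 11471 of the 12422 genes tested and all 58 members had a match by symbol or synonym. Because the builds differ, no coordinates are given.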

Additional observations from a re-analysis of the deposited data

How the results depend on the processing

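No member passed an adjusted p of 0.05 in limma in any setting, and 3 were lower at an unadjusted p under 0.05, with 2 to 4 when 1 library was left out (3.08% to 4.80% of all genes). The number higher, 0 as reported, was 1 without a filter (SLC36A1, of 51 tested, against 5.23% of all genes), 1 after quantile normalization (SLC38A2, against 5.60%) and 0 to 1 when 1 library was left out (4.47% to 6.68%). The median log2 fold change of the members tested, 0.00066 as reported, was 0.022 with a mean of at least 1 FPKM, -0.015 after median-ratio scaling and also after quantile normalization, 0.010 with array weights, -0.021 with the span trend removed, and 0.0032 to 0.031 when 1 library was left out. Without a filter the family medians were -0.0091 in SLC36A and 0.0029 in SLC3A, both with a changed sign, -0.058 in SLC6A and 0.061 in SLC7A. With a mean of at least 1 FPKM they were -0.041 in SLC1A and -0.097 in SLC6A. SLC6A was at -0.15 after median-ratio scaling and after quantile normalization and -0.16 with the span trend removed, where SLC38A was at 0.019. With 1 library left out, SLC1A ran from -0.045 to 0.067 and changed sign, SLC6A from -0.14 to -0.056 and SLC7A from 0.063 to 0.11. SLC43A1 ran from -0.067 to 0.0073 and changed sign. Of 223 values of the named members, 211 kept their direction and their side of an unadjusted p of 0.05, 5 were no longer past it, 5 were newly past it and 2 changed sign. The cause was not tested. The labels number the replicates 1 to 3 in each group. The deviations of same-numbered libraries correlated across genes at -0.051, 0.053 and 0.039. These values showed no shared replicate effect, but they cannot tell whether same-numbered libraries came from the same calf or culture. With the replicate block 2 members were lower, against 4.20% of all genes, SLC43A2 not being past an unadjusted p of 0.05 at -0.29 (adjusted p = 0.509 in limma, from 0.352 to 0.639 over its alternatives), and no other call of a named member changed. Depth is unknown, so no counting error could be given, and a member listed at 0 may be expressed below what these libraries could show.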

Other observations

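The order of the 3 most abundant members differed between the groups. This comparison was chosen after the values were seen and carries no test. The ratio of SLC38A2 to SLC1A5 in FPKM was 1.08, 1.13 and 1.101 in the agomir libraries and 0.979, 0.866 and 0.967 in the agomir NC libraries, so SLC38A2 was the higher of the pair in every agomir library and the lower in every agomir NC library. The ratio of SLC38A2 to SLC3A2 was 1.07, 1.11 and 1.02 with the agomir and 0.977, 0.942 and 0.968 with the agomir NC, with the same separation. Such ratios within a library do not change when each library is multiplied by a single factor, as in median-ratio scaling, but they can change with quantile normalization or removal of the span trend. A ratio shows unequal levels and not which of its genes differed.

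SLC3A2 was more abundant per length than its light chains together, and its FPKM divided by the summed FPKM of 6 light chains was 1.93, 1.904 and 2.07 with the agomir and 2.11, 2.06 and 2.27 with the agomir NC. The groups overlapped.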
